A study of Mus musculus with 6 samples.

Results

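The genes of DNA replication and of the G1/S transition were examined in RNA sequencing of sorted regulatory T cells of the mouse, which are CD4 T cells that express Foxp3 and restrain immune responses. The set holds 36 genes, named by symbol for origin licensing, the replisome, nucleotide supply and E2F control, out of 47069 genes with an Ensembl ID in the deposited tables, and all 36 were found by symbol. The 6 libraries came from 4 groups. At 72 h there were 2 libraries of Foxp3CreNoc4lfl/fl cells (cKO, replicates 2 and 4) and 2 of Foxp3CreNoc4l+/fl cells (Het, replicates 1 and 3), and at 48 h there was 1 cKO library (replicate 2) and 1 Het library (replicate 1). All cells were sorted as CD4+GFP+CD62Lhigh from lymph node and spleen and activated in culture with Dynabeads, and every library, Het included, carried the Foxp3-driven Cre and at least 1 floxed Noc4l allele. The labels give no ages and do not say whether libraries came from separate or pooled animals, so a p-value here measures only how far the libraries spread, which may be technical.

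Before a cell copies its DNA, origins of replication are licensed: the origin recognition complex with Cdc6 and Cdt1 loads the ring-shaped Mcm2-7 helicase. Cyclin E with its kinase and the E2F transcription factors then carry the cell into S phase, where Cdc45 and the GINS complex join the ring, polymerases extend primers around the sliding clamp Pcna, and ribonucleotide reductase and its partners supply nucleotides. Resting T cells hold little of this machinery and build it after activation through their antigen receptor. Noc4l, the gene targeted in this study, is named after a yeast protein of small ribosomal subunit assembly.

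Values are FPKM (fragments per kilobase, scaled to the size of the library), which the authors deposited in 2 tables, the first with replicates 1 and 2 at both times and the second with replicates 3 and 4 at 72 h. Estimated depth was 16500000 to 28800000 fragments per library. The targeted gene went against the labels: Noc4l stood at 81.7 and 58.1 FPKM in the libraries labelled cKO against 48.8 and 40.8 in Het at 72 h, and at 124 in the library labelled cKO against 99.1 in Het at 48 h. Each direction by genotype is therefore one for the libraries as labelled. The 7 regulatory T cell and CD4 T cell markers, Foxp3 among them, were all above 1 FPKM in all 6 libraries. Markers of other cells were uneven. The 10 myeloid markers summed to 263 FPKM in cKO 2 at 72 h and 330 at 48 h, with 7 of 10 at or above 1 FPKM in each, and to at most 0.67 FPKM in each other library, where none reached 1. The 7 B cell markers summed to 92.0 FPKM in cKO 2 at 72 h and to 9.23 to 25.6 elsewhere. The 7 CD8 T and NK cell markers summed to 297 and 119 FPKM in cKO 2 and 4 at 72 h and to 14.2 to 79.9 elsewhere. In cKO 4, Nkg7 at 89.1 and Gzma at 22.8 FPKM made up most of that sum. There Cd8a stood at 2.24, Cd8b1 at 4.47, Klrd1 at 0.453, Ncr1 at 0.123 and Klrb1c at 0. In cKO 2 at 72 h Cd8a stood at 39.0 and Cd8b1 at 19.1. The 6 erythroid markers summed to 24.6 to 31.0 in both cKO 2 libraries and in Het 1 at 72 h, and to at most 5.89 elsewhere. Their part in the results that follow was not tested.

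Nearly all replication genes were lower at 72 h than at 48 h, and no gene of the set passed the test of this difference. In the fit over 6 libraries, 35 of 36 genes had a log2 change below 0, against 49.7% of the 12394 genes tested (50.3% were above 0), and their median was -0.26 against 0.00 for all genes. With a table term in the fit, this change rests on the libraries of the first table. The second table adds only to the genotype estimate and the spread. The range ran from -0.56 for Gins2 to 0.02 for Rrm2. In the first table, which alone holds both times, 25 of 36 had both 72 h values below both 48 h values, as did 19.7% of the 9284 genes that averaged 5 FPKM or more, and 0 of 36 lay above both. Both genotypes were lower at 72 h in 28 of 36 genes, as were 28.2% of all genes, while 27.2% of all genes were higher in both and 20.6% lay above both 48 h libraries. In 34 of 36 the highest of the 6 libraries was a 48 h library, and the exceptions, Rrm2 and Gins3, peaked in Het 1 at 72 h. This count was not made over all genes, and it mixes time with table, since the second table holds 72 h alone. Together the 36 genes made up 0.506% of all FPKM in cKO 2 and 0.501% in Het 1 at 72 h, against 0.577% in cKO and 0.628% in Het at 48 h. In bulk RNA, fewer cells in S phase and less RNA per cell cannot be told apart.

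With limma (log2 of FPKM + 1, terms for genotype, time and table, 2 residual degrees of freedom), 0 of 36 genes passed an adjusted p of 0.05, the smallest adjusted p being 0.362 for Mcm7 and Gins2, while of all genes 3 passed as higher (0.0242%) and 0 as lower. At an unadjusted p under 0.05, 7 of the 36 were lower (Cdt1, Mcm2, Mcm3, Mcm5, Mcm7, Gins2 and Pcna) and 0 higher, against 4.63% and 6.45% of all genes. That count was 1 with the replicate number as a block and 1 in the first table alone, beside 349 and 364 of all genes. Without Het 3 or without cKO 4 it was 1 each, beside 358 and 355 of all genes. It was 10 with quantile normalization, 13 with median centring and 13 with no table term, beside 676, 745 and 791 of all genes. In the fit above, 574 of all genes were lower. In the cKO pair the median was -0.16 over the 35 genes that averaged 5 FPKM or more, with 29 lower and 6 higher, and in the Het pair it was -0.32, with 33 lower and 2 higher. Of all genes 45.7% were lower and 54.3% higher in the cKO pair (median 0.03), and 54.1% were lower and 45.9% higher in the Het pair (median -0.04). A log2 ratio of -0.5 or less was reached by 3 of the 35 in the cKO pair (Cdt1, Gins2 and Chaf1a; 3.52% of all genes) and by 4 in the Het pair (Orc1, Mcm7, Gins2 and Dut; 12.5% of all genes). None of the 35 reached 0.5 in the cKO pair or in the Het pair, beside 6.41% and 11.6% of all genes.

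**Figure D1:**
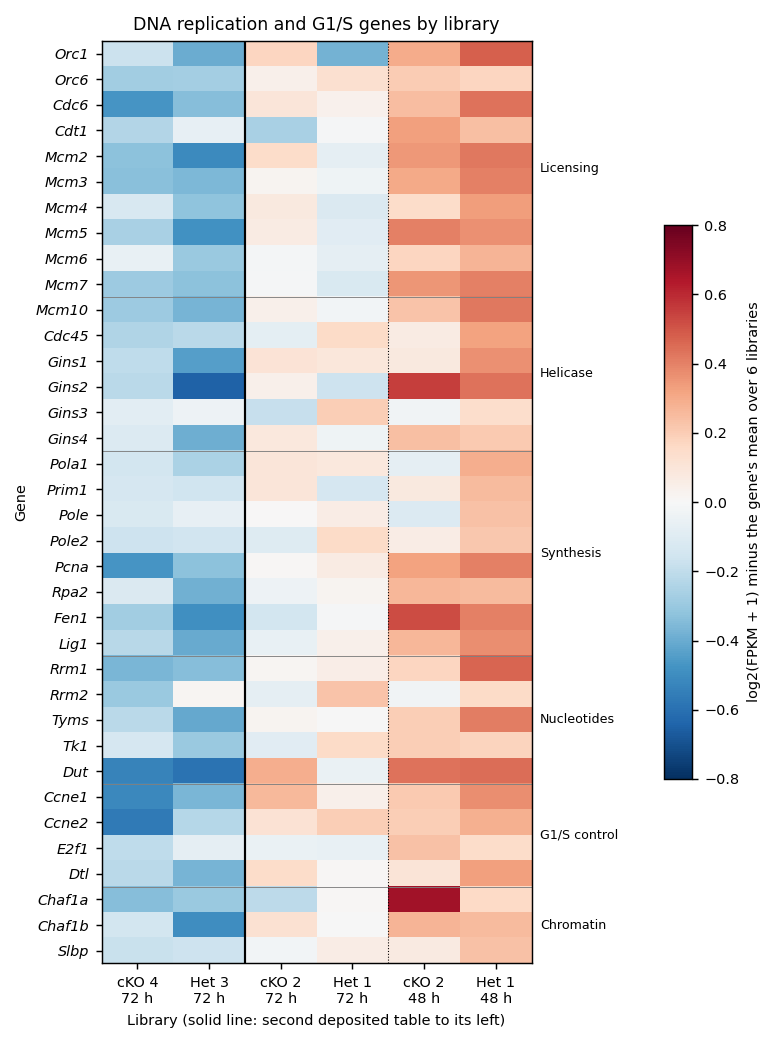
Each row is 1 of the 36 genes and each column 1 library, and the colour gives log2(FPKM + 1) minus the gene's mean over the 6 libraries. The 2 columns at 48 h are the reddest, holding the highest value in 34 of 36 genes, and the 2 columns of the second table are the bluest, holding the lowest value in 34 of 36. Neither count was made over all genes, and the second table holds 72 h libraries alone.

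The deposited tables also differed in the level of these genes between libraries of 1 genotype and 1 time. At 72 h, cKO 4 was below cKO 2 in 34 of 36 genes, against 44.1% of all genes, with a median log2 ratio of -0.24 over the 35 genes of 5 FPKM or more. Het 3 was below Het 1 in 36 of 36, against 42.3% of all genes, with a median of -0.36 over the same 35. For all genes the same medians were 0.07 and 0.06. The medians of the 36 genes between tables are larger in size than their genotype medians at 72 h. They also exceed in size the median change with time in the pair of the same genotype, -0.16 in cKO and -0.32 in Het. In the fit over 6 libraries the median change with time was -0.26. The table was a term of each fit because each table holds 1 library of each genotype at 72 h and the tables may have been processed separately. Levels set across tables may carry any difference in how the tables were made. This holds for each second-table value at 72 h that is set against values at 48 h.

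Of the groups by role, licensing had the lowest median change with time. All 10 genes stood below 0, with a median log2 change of -0.35. Mcm7 (ENSMUSG00000029730), a subunit of the helicase ring, had 297 and 244 FPKM in cKO (replicates 2 and 4) and 274 and 237 in Het (replicates 1 and 3) at 72 h, against 381 in cKO and 394 in Het at 48 h. Each 72 h library was below each 48 h library, and the genotypes overlapped at 72 h. The log2 change with time was -0.44 ± 0.12 (SE; 95% interval -0.73 to -0.15; limma adjusted p = 0.362). It rests on the 2 libraries at 72 h and 2 at 48 h of the first table. The other ring subunits stood at -0.40 (Mcm5), -0.36 (Mcm3), -0.35 (Mcm2), -0.26 (Mcm6) and -0.26 (Mcm4). Cdt1 (ENSMUSG00000006585), which brings the ring to the origin, had 46.5 and 47.3 FPKM in cKO and 55.5 and 53.2 in Het at 72 h, against 70.3 in cKO and 66.0 in Het at 48 h. Its 72 h values were below its 48 h values in all libraries, with a change of -0.42 ± 0.14 (SE, limma adjusted p = 0.412). The loader Cdc6 stood at -0.27 and the origin subunit Orc6 at -0.11.

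Orc1 (ENSMUSG00000028587), the largest subunit of the origin recognition complex, had the widest genotype difference of the set at 72 h in the fit. It had 19.8 and 15.4 FPKM in cKO and 13.2 and 13.0 in Het at 72 h, against 21.6 in cKO and 24.7 in Het at 48 h. Both cKO libraries lay above both Het libraries at 72 h, while at 48 h the cKO library was the lower. The log2 ratio of 72 h to 48 h was -0.12 in the cKO pair and -0.86 in the Het pair. The fit of the genotype by time interaction also takes in the 72 h libraries of the second table. It gave 0.57 ± 0.26 (SE, limma adjusted p = 0.856), which is not the gap between those ratios.

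Promoter sequences of 3 genes are shown because these genes mark the ends of the 2 comparisons. Orc1 had the largest excess in cKO at 72 h and Rrm2 the largest deficit there. Rrm2 also had the only change with time above 0, at 0.02, and Mcm7 the smallest p with time. The last was chosen after its value was seen. Each is the RefSeq window of 300 bases around the gene's start on GRCm38.p6, 5′ to 3′ on the gene's strand. Capitals mark E2F letters in Orc1 and Mcm7 and the letters TTTAAA, a form of the cell cycle homology region element (CHR), in Rrm2.
Orc1, chr4:108579204-108579503, plus strand: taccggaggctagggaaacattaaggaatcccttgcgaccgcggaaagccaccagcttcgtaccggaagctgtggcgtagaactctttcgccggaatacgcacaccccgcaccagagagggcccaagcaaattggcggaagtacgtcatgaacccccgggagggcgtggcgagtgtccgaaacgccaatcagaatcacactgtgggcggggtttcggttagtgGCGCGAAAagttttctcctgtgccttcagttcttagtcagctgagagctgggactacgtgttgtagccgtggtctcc
Mcm7, chr5:138171834-138172133, minus strand: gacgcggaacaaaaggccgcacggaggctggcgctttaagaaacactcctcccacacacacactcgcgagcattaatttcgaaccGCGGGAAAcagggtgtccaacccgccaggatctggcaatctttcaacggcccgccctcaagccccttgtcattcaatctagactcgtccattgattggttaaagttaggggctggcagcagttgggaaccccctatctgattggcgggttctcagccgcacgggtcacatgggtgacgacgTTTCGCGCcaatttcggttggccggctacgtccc
Rrm2, chr12:24708004-24708303, plus strand: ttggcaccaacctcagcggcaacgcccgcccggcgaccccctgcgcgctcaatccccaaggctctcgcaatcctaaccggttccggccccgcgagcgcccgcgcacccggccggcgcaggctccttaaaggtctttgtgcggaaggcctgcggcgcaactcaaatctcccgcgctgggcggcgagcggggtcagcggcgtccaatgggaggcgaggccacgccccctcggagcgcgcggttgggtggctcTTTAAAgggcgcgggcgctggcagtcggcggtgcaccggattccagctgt
Orc1 holds TTTCGCGC on its minus strand, starting 27 bases before the gene's start. Mcm7 holds TTTCGCGC 17 bases after the start, its last base being the first of a CCAAT box, and TTTCCCGC on the minus strand 165 bases before it. Rrm2 holds none of the E2F letters searched and has TTTAAA, which reads alike on both strands, from base 1 after the start. Mcm7 has a further window, not shown. The gene with the lowest change with time that has a window, Fen1, is also not shown, since its level is uncertain.

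Of the 36 genes 30 had a RefSeq window. Searched on both strands for TTTCGCGC, TTTGGCGC and TTTCCCGC, 12 of 30 held at least 1 of these E2F motifs, against 2.12% of 27025 genes with a window. CCAAT was in 63.3% (all genes 41.1%) and TTTGAA or TTTAAA in 26.7% (all genes 30.6%). For 24 of 30 mitosis genes with a window the shares were 4.17% for the E2F letters, 79.2% for CCAAT and 87.5% for the CHR letters. The median log2 change with time was -0.30 in the 12 genes with E2F letters and -0.26 in the 18 without. It was -0.16 in the 8 with CHR letters and -0.28 in the 22 without. These are letters found in a window; whether any factor binds there was not measured.

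Among the genes that complete and start the helicase, Gins2 stood lowest with time. Gins2 (ENSMUSG00000031821), 1 of 4 subunits of the GINS complex, had 16.6 and 13.7 FPKM in cKO and 14.3 and 9.93 in Het at 72 h, against 24.1 in cKO and 22.1 in Het at 48 h. All 72 h libraries lay below the 48 h libraries, with a change of -0.56 ± 0.15 (SE, limma adjusted p = 0.362). Its annotated exons overlap the opposite-strand gene Gse1 over 67.3% of their bases, and the strand setting is not stated, so reads of these genes may be mixed or lost. The subunits Gins4 and Gins1 stood at -0.20 and -0.12, Mcm10, which helps to start the helicase, at -0.32, and Cdc45 at -0.16. Gins3 (ENSMUSG00000031669) had 9.10 and 9.80 FPKM in cKO and 12.2 and 10.2 in Het at 72 h, against 10.3 in cKO and 11.6 in Het at 48 h, a change of -0.05 ± 0.16 (SE). In FPKM, a level per length, GINS subunits were unequal: at 72 h they ran from 9.10 to 39.4 FPKM in cKO 2 and from 12.2 to 36.2 in Het 1, with Gins3 lowest in both.

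**Figure D2:**
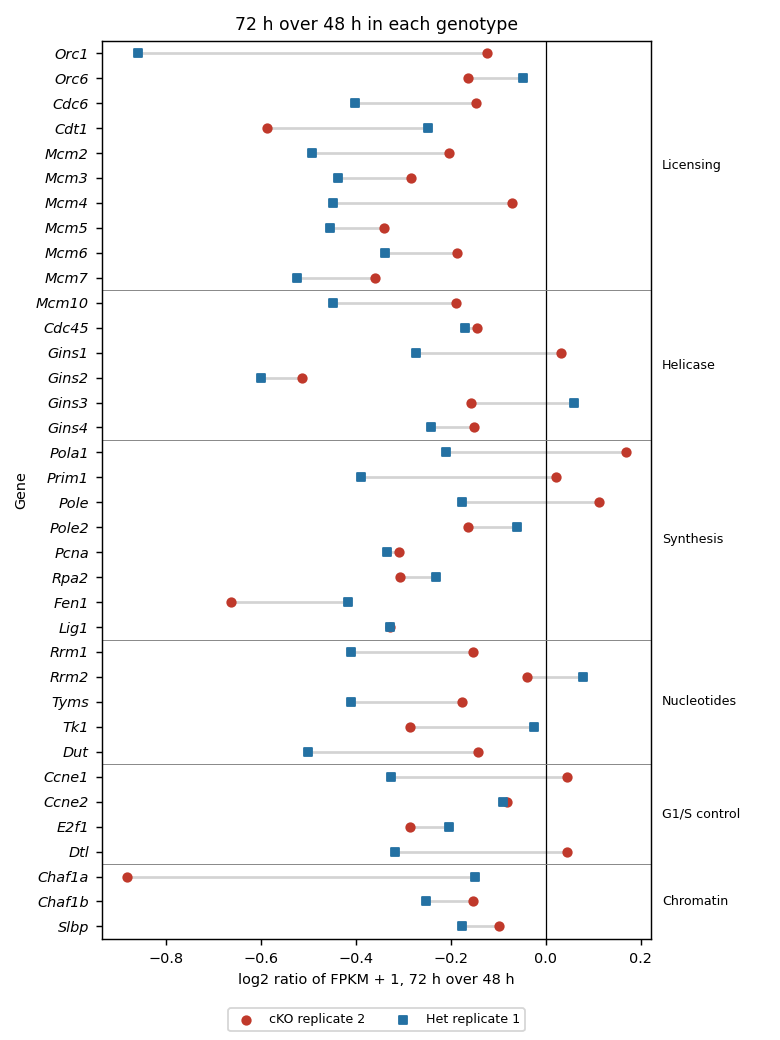
For each gene the log2 ratio of FPKM + 1 at 72 h over 48 h is shown for the cKO pair (red circle) and the Het pair (blue square), joined by a line. The points lie left of 0 in both genotypes for 28 of 36 genes, and the widest gaps are those of Orc1, at -0.12 in cKO and -0.86 in Het, and of Chaf1a, at -0.88 in cKO and -0.15 in Het.

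Genes of DNA synthesis ran from -0.54 to -0.02 with time. Pcna (ENSMUSG00000027342), the sliding clamp and the most abundant gene of the set in FPKM, had 579 and 413 FPKM in cKO and 602 and 458 in Het at 72 h, against 717 in cKO and 760 in Het at 48 h, a change of -0.32 ± 0.11 (SE, limma adjusted p = 0.429). Its 72 h values were all below its 48 h values. Lig1, which seals Okazaki fragments, stood at -0.33 and Rpa2, a subunit that coats single-stranded DNA, at -0.27. The primase Prim1 stood at -0.18 and the polymerase epsilon subunit Pole2 at -0.11.

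Pola1 and Pole, catalytic subunits of polymerases alpha and epsilon, were closer to 0. Pola1 had 33.3 and 28.1 FPKM in cKO and 33.0 and 26.0 in Het at 72 h, against 29.5 in cKO and 38.4 in Het at 48 h, a change of -0.02 ± 0.16 (SE). Pole had 51.4 and 47.2 FPKM in cKO and 53.5 and 49.1 in Het at 72 h, against 47.5 in cKO and 60.6 in Het at 48 h, a change of -0.03 ± 0.14 (SE). For both, the 48 h libraries bracketed the 72 h libraries of the first table. The intervals of the changes, -0.43 to 0.39 for Pola1 and -0.38 to 0.31 for Pole, include the median of the set. Fen1, the flap endonuclease, had only 1.64 and 1.41 FPKM in cKO and 1.90 and 1.08 in Het at 72 h, against 3.19 in cKO and 2.87 in Het at 48 h. Its change was -0.54 ± 0.22 (SE, limma adjusted p = 0.459). Opposite-strand Gm10143 overlaps 78.8% of its exon bases, and 52 to 185 fragments are estimated behind its values, with a counting error of 13.9% at the lowest, so its level is uncertain. The other 35 genes had 253 or more estimated fragments in each library, a counting error of at most 6.29%.

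Nucleotide supply held the 1 gene whose change with time was above 0. Rrm2 (ENSMUSG00000020649), the regulated subunit of ribonucleotide reductase, had 254 and 217 FPKM in cKO and 313 and 270 in Het at 72 h, against 261 in cKO and 297 in Het at 48 h. Its 72 h and 48 h values overlapped, with a change of 0.02 ± 0.11 (SE; 95% interval -0.27 to 0.31; limma adjusted p = 0.965). With median centring or with no table term, 0 of the 36 genes stood above 0. The partner subunit Rrm1 stood at -0.28. Dut, which removes dUTP, stood at -0.32, thymidylate synthase Tyms at -0.29 and thymidine kinase Tk1 at -0.16.

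The 4 genes of G1/S control were all below 0 with time, with a median of -0.14. E2f1, a transcription factor that drives many of these genes, stood at -0.25 and cyclin E1 (Ccne1) at -0.14. Dtl, which marks Cdt1 for destruction in S phase, stood at -0.14 and Ccne2 at -0.09. In chromatin assembly, Chaf1a (ENSMUSG00000002835), the large subunit of chromatin assembly factor 1, had 35.3 and 32.1 FPKM in cKO and 41.2 and 33.1 in Het at 72 h, against 65.9 in cKO and 45.8 in Het at 48 h. The 48 h cKO library stood well above the rest, and the change of -0.52 ± 0.20 (SE, limma adjusted p = 0.450) was -0.19 without it: the log2 ratio was -0.88 in the cKO pair and -0.15 in the Het pair. Exons of Ubxn6 on the other strand overlap 52.5% of Chaf1a exon bases. Its partner Chaf1b stood at -0.20 and the histone mRNA binding protein Slbp at -0.14.

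**Figure D3:**
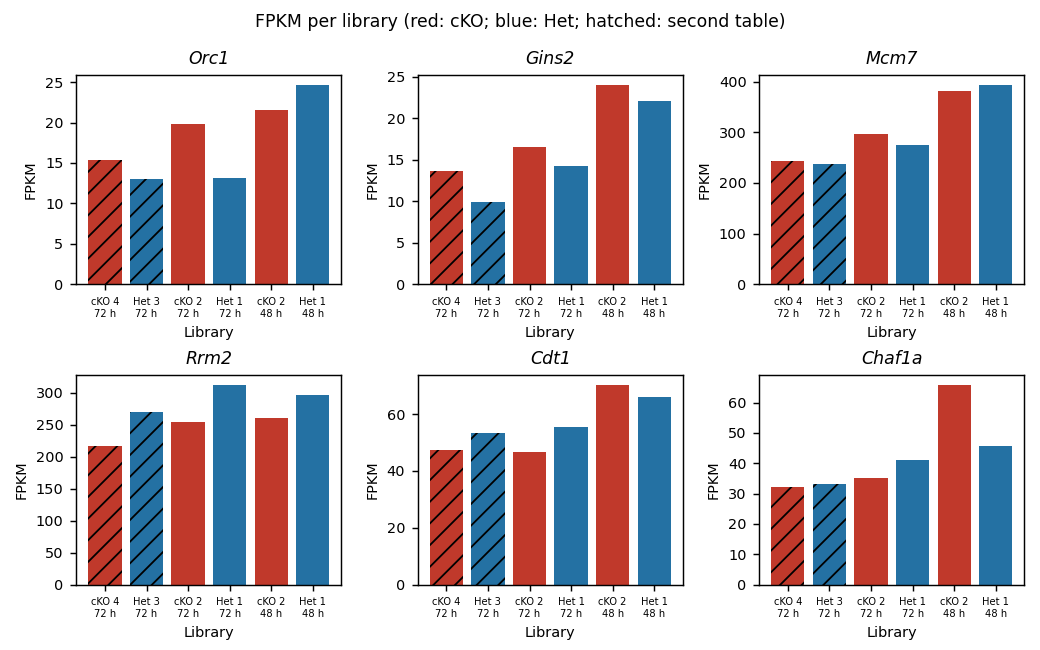
Bars give the FPKM of 6 genes in each library, cKO in red and Het in blue, with libraries of the second table hatched. Orc1, Gins2, Mcm7, Cdt1 and Chaf1a are highest at 48 h, Rrm2 is lower in cKO than in Het in each pair, and the 48 h cKO value of Chaf1a, 65.9 FPKM, stands alone.

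Between genotypes at 72 h the replication genes lay close to level. The 36 genes had a median log2 difference of 0.04, beside 0.08 for the 12488 genes tested, and ran from -0.31 (Rrm2) to 0.39 (Orc1). Of them 21 were above 0 and 15 below, against 61.0% and 39.0% of all genes. After centring each library on its median gene the split was 14 above and 22 below, and after quantile normalization 18 and 18, so the direction of the set depends on the scaling. Median centring put 1 gene under an unadjusted p of 0.05, as lower, beside 1243 of all genes lower and 886 higher. With limma (genotype and table as terms, 1 residual degree of freedom) 0 of 36 passed an adjusted p of 0.05 and 0 of 36 lay under an unadjusted p of 0.05, beside 0% of all genes by adjusted p, and 10.3% higher and 6.99% lower by unadjusted p. Both cKO libraries were above both Het libraries in 2 of 36 (24.9% of all genes) and below both in 3 of 36 (13.8%). The widest 95% interval among genes above 5 FPKM was that of Gins3, -0.67 to 0.24, so differences of that size could not be detected. The interval is not adjusted for the number of genes tested, so larger differences could be missed too. E2f2, outside the set, stood at -1.16 and did not pass (limma adjusted p = 0.151).

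Within pairs, too, genes lay on both sides of 0. In the pair of cKO 2 and Het 1, 20 of 35 genes were higher and 15 lower (56.4% and 43.6% of all genes), and Orc1 alone reached 0.5 while none reached -0.5 (15.3% and 11.5%). The pair of cKO 4 and Het 3 likewise had 20 higher and 15 lower (61.0% and 39.0%), and 0 of 35 reached 0.5 or -0.5 (8.75% and 5.12%). Both pairs were higher in cKO in 17 of 36 genes (42.4% of all genes) and lower in 12 (24.6%).

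The 2 genes with both cKO libraries above both Het libraries were Orc1 and Mcm6. From the values given above, Orc1 stood at 0.39 ± 0.15 (SE; 95% interval -0.04 to 0.82; n = 2 libraries each; limma adjusted p = 0.315), with log2 ratios of 0.55 between cKO 2 and Het 1 and 0.23 between cKO 4 and Het 3. Mcm6 had 191 and 186 FPKM in cKO against 185 and 157 in Het, a difference of 0.15 ± 0.13 (SE). Its cKO 4 value of 185.9 lay barely above its Het 1 value of 184.5, with estimated counting errors of 1.25% and 1.12%. Of the ring subunits Mcm2 to Mcm7, 6 of 6 were higher in cKO in both 72 h pairs, as were 42.4% of all genes, with log2 ratios of 0.05 to 0.22 between cKO 2 and Het 1 and 0.03 to 0.24 between cKO 4 and Het 3. At 48 h 5 of the 6 were lower in the cKO library, from -0.19 to 0.04. The direction depends on the scaling: in the 72 h fit all 6 were above 0 as deposited and with quantile normalization, but with median centring Mcm3 stood at -0.05 and Mcm7 at -0.02. The 95% interval at 72 h included 0 for each of the 6.

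Other genes above Het by the largest amounts were Gins2, Chaf1b and Gins4. Gins2, whose values are given above, stood at 0.32 ± 0.14 (SE, limma adjusted p = 0.350), and was higher in cKO in each of the 3 pairs. Opposite-strand Gse1, which overlaps 67.3% of Gins2 exon bases, was also higher in cKO in each of them. Gse1 had 22.2 and 33.9 FPKM in cKO against 21.1 and 28.8 in Het at 72 h, and 28.4 against 24.1 at 48 h. Whether Gse1 reads enter the Gins2 ratio was not tested. Chaf1b had 45.1 and 37.4 FPKM in cKO against 41.4 and 29.1 in Het at 72 h, and 50.3 in cKO against 49.5 in Het at 48 h, a difference at 72 h of 0.24 ± 0.14 (SE). Gins4 had 39.4 and 34.3 FPKM in cKO against 36.2 and 28.0 in Het at 72 h, and 43.9 in cKO against 42.9 in Het at 48 h, a difference of 0.20 ± 0.13 (SE). For Gins2, Chaf1b and Gins4 the genotypes overlapped across tables at 72 h.

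The 3 genes with both cKO libraries below both Het libraries were Rrm2, Cdt1 and Gins3. Rrm2 stood at -0.31 ± 0.12 (SE; 95% interval -0.64 to 0.03; n = 2 libraries each; limma adjusted p = 0.309), the smallest adjusted p of the set. It was lower in cKO in 3 of 3 pairs, at -0.30 and -0.32 at 72 h and -0.18 at 48 h. Over both times, in the fit with 3 libraries per genotype, it stood at -0.27 (limma adjusted p = 0.359), and was the 1 gene of the set under an unadjusted p of 0.05, beside 5.28% of all genes lower and 8.04% higher. It was no longer under that p with no variance trend, with no table term, or with any 1 of the 6 libraries left out. The set then had 16 genes above 0 and 20 below (58.9% and 41.1% of all genes). Cdt1 stood at -0.21 ± 0.12 and Gins3 at -0.22 ± 0.16 (SE), and at 48 h Cdt1 was 0.09 in the other direction. Ccne2, cyclin E2, had 22.5 and 13.7 FPKM in cKO against 23.9 and 17.5 in Het at 72 h, and 23.9 in cKO against 25.5 in Het at 48 h, a difference at 72 h of -0.21 ± 0.14 (SE). Its relative Ccne1 stood at 0.21 between cKO 2 and Het 1 and at -0.15 between cKO 4 and Het 3.

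**Figure D4:**
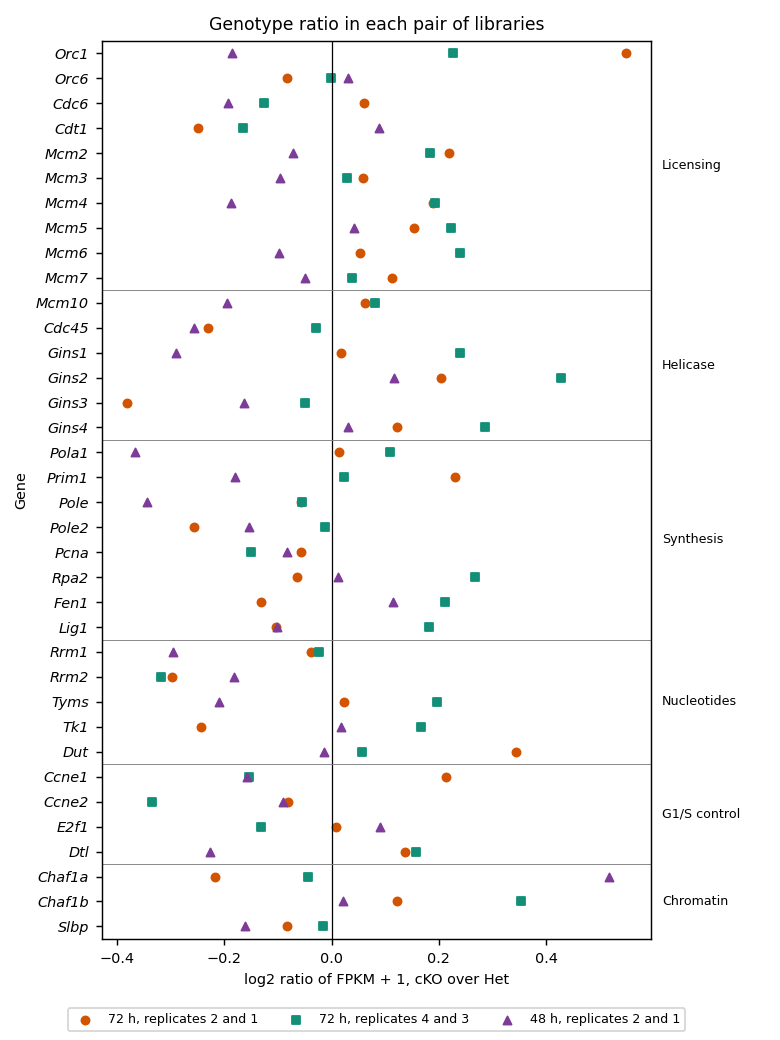
The log2 ratio of FPKM + 1 in cKO over Het is plotted for each gene in the 72 h pair of replicates 2 and 1 (orange), the 72 h pair of replicates 4 and 3 (green) and the 48 h pair (purple). Points lie on both sides of 0. Both 72 h pairs were above 0 in 17 of 36 genes (42.4% of all genes) and below 0 in 12 (24.6%). Orc1 (0.55 and 0.23) and Rrm2 (-0.30 and -0.32) lie farthest out on either side by the mean of the 72 h pairs.

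At 48 h, with 1 library per genotype and no test, 25 of the 35 genes above 5 FPKM were lower in the cKO library and 10 higher, against 50.9% and 49.1% of all genes, with a median log2 ratio of -0.10 beside -0.01 for all genes. Chaf1a, at 0.52, was the 1 gene with a ratio of at least 0.5, beside 2.38% of all genes higher, and 0 of 35 reached -0.5, beside 1.28% lower. The lowest were Pola1 (-0.37), Pole (-0.34), Rrm1 (-0.30) and Gins1 (-0.29). The 48 h ratios and the changes with time share their 48 h libraries. Whether the genotype difference differed between times was tested with an interaction term: 0 of 36 genes passed an adjusted p of 0.05 in limma, and 1, Chaf1a, lay under an unadjusted p of 0.05 (-0.65 ± 0.22, SE, adjusted p = 0.856), beside 0% of all genes by adjusted p, and 2.28% lower and 3.43% higher by unadjusted p. The median interaction was 0.15, beside 0.09 for all genes, with 26 genes above 0 and 10 below (60.0% and 40.0% of all genes). This fit had 1 residual degree of freedom, so a count of 0 says little.

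The other genes of the pathway, 77 in a list drawn from the same roles, were also mostly below 0 with time and had a wider range by genotype. With time 61 of 77 stood below 0 (49.7% of all genes), with a median of -0.13, and 0 of 77 passed an adjusted p of 0.05. At an unadjusted p under 0.05, 1 was higher and 4 lower, beside 6.45% and 4.63% of all genes, so these counts are near the background or below it. Both 72 h libraries of the first table were below both 48 h libraries in 28 of 77 and above both in 3, beside 19.7% and 20.6% of all genes. The lowest were enzymes of one-carbon, purine and nucleotide pool metabolism: Shmt1 at -0.66 ± 0.34, Impdh2 at -0.63 ± 0.18 and Dctpp1 at -0.58 ± 0.19 (SE). The value of Shmt1 averages unlike pairs, with a log2 ratio of 0.055 in the cKO pair and -1.37 in the Het pair, while Impdh2 and Dctpp1 were lower at 72 h in both. The highest were Samhd1, which breaks down dNTPs, at 0.54 ± 0.12, and the pocket proteins Rbl2 and Rb1, which restrain E2F, at 0.38 ± 0.17 and 0.31 ± 0.15 (SE). Samhd1 had 395 and 712 FPKM in cKO and 479 and 745 in Het at 72 h, against 292 in cKO and 304 in Het at 48 h, and was higher in each 72 h library. Its limma adjusted p was 0.312.

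By genotype at 72 h, 45 of the 77 were above 0 and 32 below (61.0% and 39.0% of all genes), with a median of 0.04. None passed an adjusted p of 0.05. At an unadjusted p under 0.05, 5 were higher and 4 lower, beside 10.3% and 6.99% of all genes, shares that the list did not exceed. E2f2, an E2F family activator, had 50.7 and 91.3 FPKM in cKO against 142 and 164 in Het at 72 h, and 73.2 in cKO against 77.8 in Het at 48 h. Both cKO libraries were below both Het libraries at 72 h, a difference of -1.16 ± 0.20 (SE, limma adjusted p = 0.151), wider than that of any of the 36 genes, E2f1 (-0.06) included. The histone chaperone Asf1b stood at -0.65 ± 0.15 and the firing factor Ticrr at -0.51 ± 0.14 (SE). The highest were Shmt1 at 0.90 ± 0.30, Cad, which starts pyrimidine synthesis, at 0.85 ± 0.26, and Umps, which completes UMP, at 0.55 ± 0.21 (SE). Shmt1 had 77.3 and 35.7 FPKM in cKO against 27.9 and 27.8 in Het, a log2 ratio of 1.44 in the pair with cKO 2, the library that held the myeloid and B cell markers, and 0.35 in the other pair; the part of those cells was not tested. Those of Cad were 173 and 91.6 FPKM in cKO against 69.9 and 68.9 in Het.

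Mitosis genes were set beside the replication genes to show where the set differs. Of 30 genes of mitosis 30 were below 0 in cKO at 72 h (39.0% of all genes), with a median of -0.57 beside 0.04 for the 36 replication genes, and 26 lay under an unadjusted p of 0.05 (6.99% of all genes lower) while 0 passed an adjusted p. The lowest were Anln, which acts in cytokinesis, at -0.96 ± 0.17 and the spindle protein Spag5 at -0.84 ± 0.20 (SE, limma adjusted p = 0.154 and 0.202). The ranges of the lists at 72 h were -0.96 to -0.25 and -0.31 to 0.39, and the 1 replication gene within the mitotic range was Rrm2. With time the order was the other way, at a median of 0.04 for mitosis genes (18 of 30 above 0, beside 50.3% of all genes) and -0.26 for the replication genes. The mitotic median with time was -0.14 in the cKO pair and 0.25 in the Het pair, where 27 of 30 were above 0, beside 45.9% of all genes. These are descriptions of lists chosen with earlier results known, and no test of the lists against each other was run.

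**Figure D5:**
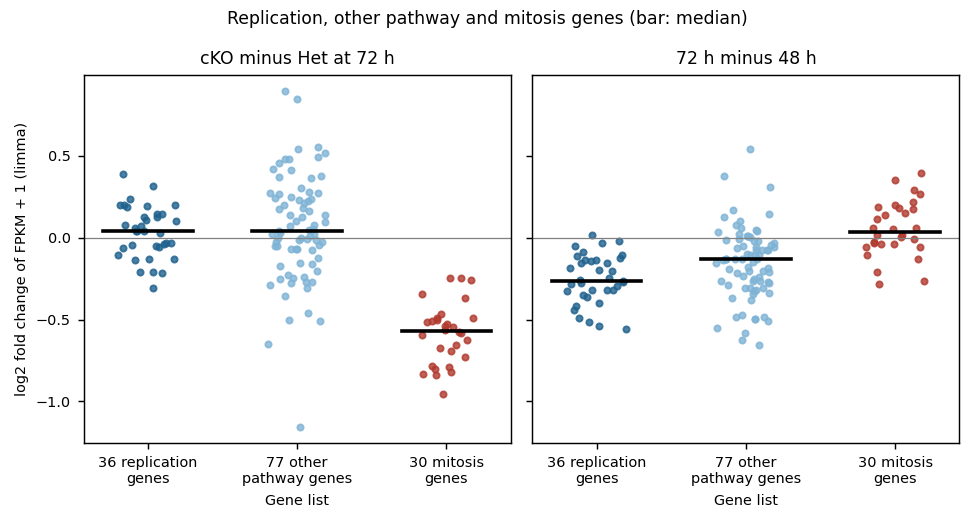
Points are single genes and the black bar is the list's median of the limma log2 fold change, for cKO minus Het at 72 h (left) and for 72 h minus 48 h (right). The 36 replication genes centre on 0.04 by genotype and -0.26 by time, the 77 other pathway genes on 0.04 and -0.13, and the 30 mitosis genes on -0.57 and 0.04.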

How the data were processed

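Gene expression was measured by RNA sequencing with the SMART-Seq v4 kit, per the labels' protocols. FPKM values were made by the authors and deposited in 2 tables with 47347 shared rows. Per the submitters' processing notes, Bowtie2 2.2.3, TopHat2 2.0.12, HTSeq 0.6.1 and the mm9 build are named. The sources used here state neither the role of each tool, nor the annotation, nor any strand setting. One protocol passage in the labels gives both genotypes the same alleles, and genotypes were taken from each library's title. The 278 shared rows with no Ensembl ID were left out, and 46488 of 47069 genes matched a symbol. Gene names and exon overlaps came from GENCODE M21, a different build, so of these no coordinates are given.

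Each fit kept genes averaging 1 FPKM or more and tested log2(FPKM + 1), a scale that understates the change of low genes, with limma 3.58.1 in R 4.3.3 (trend, Benjamini-Hochberg over all genes). Ratios of single pairs used genes averaging 5 FPKM or more. Depth was estimated from the steps of low FPKM values with the mean transcript length as gene length: 86.0% to 86.8% of low values lay within 0.02 of whole fragments, against 3.55% to 4.19% with lengths scrambled. It served for counting errors alone, which cover no other error. Simulated data with 200 changed genes served to test the scripts. The genes, lists and tests were chosen with earlier results of these data known. Values in every library were given for the 4 genes highest and the 4 lowest in genotype at 72 h and in time, and for Mcm7, Pcna, Mcm6 and the other pathway genes so described, which were added after their values were seen. Alternatives covered the pseudocount, the filter, the scaling, the variance trend, the table term, the replicate block and leaving out each library. Joins used pandas 2.3.3 and figures matplotlib 3.10.9, under Python 3.11.15.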

Additional observations from a re-analysis of the deposited data

How the results depend on the processing

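No gene of the 36 passed an adjusted p of 0.05 under any alternative run with a test, the smallest being 0.164, for time without cKO replicate 2 at 72 h. The median with time ranged from -0.39 with no table term to -0.15 without Het replicate 1 at 48 h, and was -0.26 with the replicate number as a block. Nothing in the labels says that numbers pair libraries, and deviations from group means could not be compared with 1 library per group at 48 h. The myeloid markers reached 1 FPKM in both libraries numbered cKO 2 and in no other, which is a hint of pairing from the data, not the design. Of the whole table, 3 genes were higher with time; the count was 0 with the block, 1 with a pseudocount of 5, 0 with no filter on low values, 0 with no table term, and 0 to 4 with 1 library left out. By genotype at 72 h the median of 0.041 was -0.052 with median centring. With no table term and 1 library left out it was 0.217 (without Het 1), -0.118 (Het 3), -0.079 (cKO 2) and 0.174 (cKO 4), and genes of the whole table passing were 133 higher and 90 lower without cKO 2, 340 higher and 268 lower without cKO 4, and 0 otherwise. With no filter 6 were higher and 2 lower. Between cKO 2 and Het 1 the median of 0.017 was -0.045 with quantile normalization and -0.039 with median centring, and between cKO 4 and Het 3 the median of 0.038 was -0.03 with median centring. Over both times the median of -0.009 was -0.071 with median centring and ranged from -0.036 to 0.041 with 1 library left out, and the count of genes higher then ran from 0 to 7. The causes were not tested. With 1 or 2 residual degrees of freedom, counts of 0 do not show that differences are absent.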
